A study of Mus musculus with 8 samples.

Results

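The genes examined here were 9 genes of MHC class I antigen presentation, B2m, H2-K1, H2-D1, Tap1, Tap2, Tapbp, Psmb8, Psmb9 and Nlrc5, together with Cd274, which encodes the checkpoint ligand PD-L1. They were taken by symbol from the deposited read counts, and 10 of 10 symbols were found among 23284. The counts came from ID8 IP2 cells, a subline of the C57BL/6 mouse ovarian cancer line ID8 that was selected by passing tumor cells through mice and that carries the tissue label ovarian surface epithelium. Control lines (n = 4) carried an empty lentiviral vector, and Notch3IC lines (n = 4) carried the same vector with the Notch3 intracellular domain and, through an internal ribosome entry site, GFP. The domain is active without ligand or receptor cleavage, so the comparison asks which transcripts differ when Notch3 signaling is constantly on. Each of Sets 1 to 4 is a separate infection that yielded a matched Control line and Notch3IC line, and each line was sequenced as 1 library. The lines of both groups also carried a luciferase and mCherry vector, and the study's methods state that later testing pointed to mycoplasma in all ID8 IP2 lines. The sources used here name no host cells and no added interferon, and the drive on Notch3 was that of the lentiviral vector, not of the endogenous gene.

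MHC class I molecules show peptides from inside the cell to CD8 T cells. The proteasome makes the peptides, with Psmb8 and Psmb9 encoding catalytic subunits of its interferon-inducible form, and the Tap1 and Tap2 proteins pump them into the endoplasmic reticulum. There the Tapbp product, tapasin, holds the transporter to a heavy chain, such as those from H2-K1 and H2-D1, that is paired with the light chain beta-2 microglobulin from B2m. Nlrc5 encodes the class I transactivator, and many genes of the pathway respond to interferons and to NF-kappaB. PD-L1, also interferon-inducible, binds PD-1 on T cells and restrains them. Tumor cells with little class I on their surface are poorly seen by CD8 T cells, while natural killer cells respond to its loss.

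Promoter sequence from RefSeq (GRCm38.p6) was at hand for 8 of the 10 genes and is shown for the heavy chains, B2m, the Tap1 and Psmb9 pair and Psmb8. Letters of 4 motifs were searched on both strands of windows from 250 bases before to 50 bases after each start: the core of the interferon-stimulated response element (GAAA, any 2 bases, GAAA), the gamma-activated site (TTC, any 3 bases, GAA), the site of Rbpj, the DNA-binding partner of Notch (TGGGAA), and the kappaB element (GGG, any 5 bases, CC). Of 32851 windows in the whole table, 3.44% held the first, 8.30% the second, 25.6% the Rbpj site and 50.8% the kappaB element. Capitals below mark the matches that each stretch was chosen for, and other matches of the window may stand in small letters. The H2-K1 stretch is chr17:34000438-34000467 on the minus strand and the H2-D1 stretch chr17:35262914-35262943 on the plus strand, each with 2 overlapping kappaB matches in capitals. The whole windows held 4 and 3 kappaB matches, and 1 of these ends in the first small letters of each stretch.
H2-K1: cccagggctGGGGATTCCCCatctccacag
H2-D1: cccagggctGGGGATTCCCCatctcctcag
Over 90 bases around these matches the 2 heavy chain promoters had 88 identical bases (97.8%). Neither held the letters of the other 3 motifs in its window. This does not show that the elements are absent, since other forms of them were not searched. The B2m stretch, chr2:122147522-122147601 on the plus strand, held the interferon core followed by an Rbpj match, both in capitals, and 2 kappaB matches that overlap the Rbpj match and run on into the small letters after it.
B2m: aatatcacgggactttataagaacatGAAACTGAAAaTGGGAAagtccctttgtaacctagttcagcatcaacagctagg
Psmb9 and Tap1 lie head to head, with 225 bases between their RefSeq start bases, and so share a promoter stretch. In GENCODE M21 their annotated exons overlap, on opposite strands, over 3.87% of the exon bases of Tap1 and 5.79% of those of Psmb9. It is shown on the Tap1 strand, chr17:34187502-34187531, around its Rbpj match. The Tap1 and Psmb9 windows each held 5 kappaB matches, and the end of 1 of them lies in the first small letters of the stretch.
Tap1-Psmb9: tggggcctgggaTGGGAAaattcacgcaag
In Psmb8, chr17:34198088-34198117 on the plus strand, a gamma-activated match overlaps an Rbpj match on the opposite strand.
Psmb8: tcctccgctgTTCCCAGAAgatgccccccc
The Tapbp window, not printed, held 2 Rbpj matches and none of the other motifs. The Cd274 window held none of the 4 motifs, which says only that these letters are not in this window. These matches are letters found in a sequence, and no binding was measured.

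Notch3 itself checked the labels. Its normalized counts, which are counts scaled to the mean library size after TMM normalization, were 38.6, 40.6, 70.8 and 42.0 in Control Sets 1 to 4 and 4319, 467, 9214 and 5838 in Notch3IC Sets 1 to 4. All Notch3IC libraries were above all Control libraries, and Set 2 had the smallest difference. Hey1, a Notch target and transcriptional repressor, rose in the same order, from 29.7, 20.3, 56.4 and 34.1 to 4076, 438, 10635 and 8009. Set 2 Notch3IC thus stood apart as the line with the least Notch3 and Hey1, and it was also the library with the fewest counts, 15524262 against up to 28208072. Results that change without it are given below with and without it.

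No class I gene passed the test of Notch3IC against Control, and neither did Cd274. Called genes are those with a Benjamini-Hochberg adjusted p below 0.1 over 12430 genes (edgeR quasi-likelihood test) whose log2 fold change is 1 or more above or below 0. Of the 9 genes tested, 0 were called, where 4.14% of all genes tested were, and 0 had an adjusted p below 0.1 at any fold change, where 6.69% did. With DESeq2, 4 of the 9 had an adjusted p below 0.1 (H2-K1, Tap1, Tap2 and Psmb8), against 12.8% of all genes. At an unadjusted p below 0.05 in edgeR there were 6 of the 9, against 18.4% of all genes. Their median log2 fold change was 0.34 and that of all genes tested was -0.01, with 5 genes above 0 and 4 below. The matched lines of a set resembled each other, so a second fit took the set as a replicate block. In that fit 8 of the 9 had an adjusted p below 0.1, where 27.1% of all genes did. Tap1, B2m, Psmb8 and Psmb9 were the 4 that were higher, and H2-K1, H2-D1, Tapbp and Cd274 the 4 that were lower (14.9% and 12.1% of all genes in these directions). Psmb8 was the 1 gene of the 9 that also reached the fold limit in the block (7.72% of all genes). This depended on the libraries: with the block, 0 of the 9 had an adjusted p below 0.1 without Set 1, without Set 3 or without Set 4 (0.673%, 0.701% and 1.83% of all genes), and 9 of 9 did without Set 2 (45.2%). Counts of reads in a bulk culture cannot tell fewer cells that express a gene from less RNA in each cell.

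**Figure D1:**
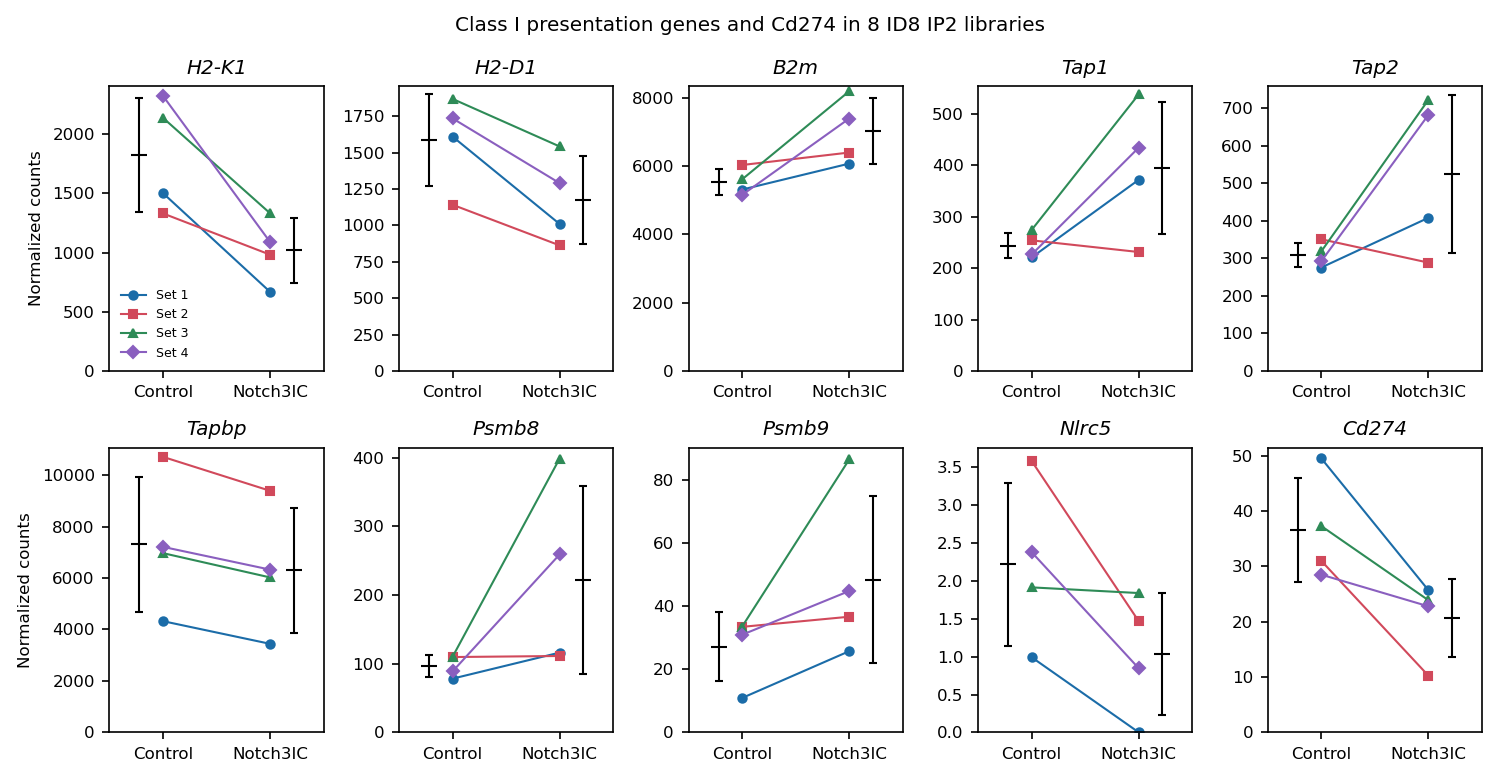
Normalized counts of the 10 genes (y axis, from 0) in Control and Notch3IC libraries, with a line joining the libraries of each set and, at the sides, the mean ± SD of the 4 libraries. H2-K1, H2-D1, Tapbp and Cd274 lines slope down in all 4 sets, B2m, Psmb8 and Psmb9 lines slope up in all 4, and Tap1 and Tap2 slope up in Sets 1, 3 and 4.

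H2-K1, at 33996017 to 34000347 on the minus strand of chromosome 17 (GRCm38, as are the gene positions that follow), encodes the heavy chain of the H-2K molecule. It had 1503, 1331, 2140 and 2325 normalized counts in Control Sets 1 to 4 and 668, 983, 1333 and 1090 in Notch3IC Sets 1 to 4. Each Notch3IC library was below the Control library of its set, while the groups met at their edges, with Notch3IC Set 3 at the level of Control Set 2. The means were 1825 ± 482 (SD, n = 4) and 1018 ± 275 (SD, n = 4). The log2 fold change was -0.84 (standard error 0.25, edgeR adjusted p = 0.110), and with the replicate block -0.85 (standard error 0.13, edgeR adjusted p = 0.0277).

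H2-D1, which encodes the heavy chain of H-2D, lies at 35262730 to 35267499 on the plus strand of chromosome 17. It had normalized counts of 1610, 1142, 1869 and 1735 in Control lines and of 1009, 863, 1542 and 1290 in Notch3IC. The groups overlapped because Control Set 2 was below 2 of the Notch3IC libraries, yet each Notch3IC library was again below its own Control. The log2 fold change was -0.43 (standard error 0.21, edgeR adjusted p = 0.322), and -0.45 with the block (standard error 0.08, edgeR adjusted p = 0.0297). Of all stretches of 100 bases in their annotated transcripts, 0.957% for H2-K1 and 3.59% for H2-D1 were identical to a stretch of another gene, mostly class I relatives such as H2-Q10 and H2-Q1, so a small share of their reads could be counted elsewhere.

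B2m, at 122147686 to 122153083 on the plus strand of chromosome 2, encodes the light chain that every classical class I heavy chain needs. It went the other way from its partners, with 5312, 6032, 5612 and 5156 normalized counts in Control and 6074, 6398, 8194 and 7394 in Notch3IC. The lowest Notch3IC library, Set 1, was just above the highest Control library, Set 2, so the groups did not overlap. Means were 5528 ± 386 (SD, n = 4) and 7015 ± 966 (SD, n = 4), a log2 fold change of 0.34 (standard error 0.12, edgeR adjusted p = 0.160, and 0.0674 with the block). Sets 3 and 4 differed most, with log2 ratios of 0.55 and 0.52 between Notch3IC and Control, against 0.19 in Set 1 and 0.09 in Set 2.

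Because the heavy chains and B2m are counted in the same library, their ratio does not depend on how libraries are scaled. In Control there were 58.6, 41.0, 71.4 and 78.8 H2-K1 and H2-D1 reads per 100 B2m reads, and in Notch3IC 27.6, 28.8, 35.1 and 32.2. All 4 Notch3IC libraries were below all 4 Control libraries, and they were closer to each other than the Control libraries were. The means were 62.5 ± 16.5 (SD, n = 4) and 30.9 ± 3.37 (SD, n = 4). The ratio was formed after the values of these genes were seen, so it carries no test. H2-K1 alone had 33.4 ± 10.2 (SD, n = 4) and 14.3 ± 2.31 (SD, n = 4) reads per 100 B2m reads, and H2-D1 alone 29.1 ± 6.91 (SD, n = 4) and 16.6 ± 2.26 (SD, n = 4). A ratio within a library shows that the genes differed unequally, not which of them differed.

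**Figure D2:**
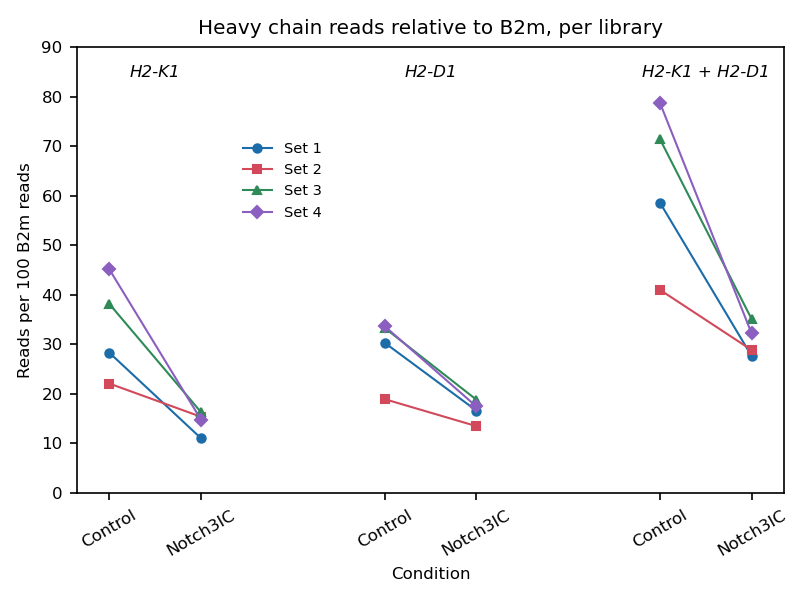
Reads of H2-K1, of H2-D1 and of both per 100 B2m reads in the same library (y axis, from 0), with lines joining Control and Notch3IC of each set. For both genes summed, Control libraries lie between 41.0 and 78.8 and Notch3IC libraries between 27.6 and 35.1.

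Tap1 and Tap2 encode the paired subunits of the peptide transporter. Tap1 (chromosome 17, 34187553 to 34197225, plus strand) had 221, 254, 275 and 227 normalized counts in Control and 372, 231, 539 and 435 in Notch3IC. Notch3IC was above every Control library in Sets 1, 3 and 4, while Notch3IC Set 2 was slightly below its own Control. The log2 fold change was 0.69 (standard error 0.24, edgeR adjusted p = 0.163, and 0.0792 with the block). Without Set 2 it was 0.90 (edgeR adjusted p = 0.0359), below the fold limit.

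Tap2 (chromosome 17, 34203527 to 34216321, plus strand) followed the same pattern. It had 275, 351, 319 and 292 normalized counts in Control and 408, 288, 722 and 682 in Notch3IC, so that Sets 1, 3 and 4 were higher and Set 2 lower in Notch3IC. The log2 fold change was 0.77 (standard error 0.28, edgeR adjusted p = 0.185, and 0.131 with the block). Without Set 2 it was 1.03 (edgeR adjusted p = 0.0492), past both limits, where 7.2% of all genes were called.

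Tapbp (chromosome 17, 33915899 to 33929292, plus strand), the gene of tapasin, varied more between sets, and less in its set ratios, than Tap1 or Tap2. In Control it had 4324, 10709, 6968 and 7211 normalized counts, against 3443, 9390, 6023 and 6326 in Notch3IC. Set 1 was low and Set 2 high in both groups, and each Notch3IC library was a little below its Control. The log2 fold change was -0.21 (standard error 0.34, edgeR adjusted p = 0.800), and -0.23 with the block (standard error 0.06, edgeR adjusted p = 0.0482), with set log2 ratios of -0.33, -0.19, -0.21 and -0.19. Annotated genes overlap 29.0% of its exon bases, 18.5% of those of Tap2 and 14.7% of those of Psmb8, and whether the counting used strand is not given in the sources used here, so some of these reads could belong to the neighbors.

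Psmb8 and Psmb9 flank Tap1 and encode the LMP7 and LMP2 subunits of the immunoproteasome. Psmb8 (chromosome 17, 34197721 to 34201454, plus strand) had 78.3, 110, 110 and 88.7 normalized counts in Control and 116, 111, 399 and 259 in Notch3IC. The groups did not overlap, but Sets 1 and 2 Notch3IC were barely above the highest Control library, while Sets 3 and 4 stood far above it. Its log2 fold change, 1.20 (standard error 0.42, edgeR adjusted p = 0.168), was the largest of the 9. It was called with the block, at 1.04 (standard error 0.33, edgeR adjusted p = 0.0840), with DESeq2, at 1.18 (DESeq2 adjusted p = 0.0545, 6.42% of all genes called), and without the Notch3IC library of Set 2, at 1.42 (edgeR adjusted p = 0.0589, 8.0% of all genes called). Without both libraries of Set 2 it was 1.49 (edgeR adjusted p = 0.109) and not called. Without Notch3IC Set 3 it was 0.75 (edgeR adjusted p = 0.397).

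Psmb9 (chromosome 17, 34181987 to 34187764, minus strand) was counted less deeply, with 11, 28, 35 and 39 reads in Control and 23, 25, 94 and 53 in Notch3IC. On the normalized scale this was 10.9, 33.4, 33.5 and 30.9 against 25.7, 36.6, 86.4 and 44.7. Set 1 was low in both groups, so the groups overlapped although every set was higher in Notch3IC. The log2 fold change was 0.84 (standard error 0.47, edgeR adjusted p = 0.389, and 0.0932 with the block). Without Notch3IC Set 3 it was 0.40 (edgeR adjusted p = 0.797).

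Nlrc5 (chromosome 8, 94434356 to 94527272, plus strand), the transactivator of the class I genes, was close to undetected. It had 1, 3, 2 and 3 reads in Control and 0, 1, 2 and 1 in Notch3IC, too few for the expression filter, so it was not tested. For 0 reads of 22980440 in Notch3IC Set 1, the floor used here, 3 reads, is 0.131 CPM, and the exact 95% Poisson upper limit is 3.69 reads, both for counting error only. A difference between the groups was not detectable at this depth.

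Cd274 (chromosome 19, 29367455 to 29388095, plus strand) was low in every library. It had 50, 26, 39 and 36 reads in Control and 23, 7, 26 and 27 in Notch3IC, where the 7 reads of Set 2 carry an exact 95% Poisson interval of 2.81 to 14.4 for counting error. Normalized counts were 49.5, 31.0, 37.3 and 28.5 against 25.7, 10.3, 23.9 and 22.8. Every Notch3IC library was below every Control library, though Notch3IC Set 1 and Control Set 4 were close. Means were 36.6 ± 9.39 (SD, n = 4) and 20.7 ± 7.04 (SD, n = 4), a log2 fold change of -0.80 (standard error 0.33, edgeR adjusted p = 0.243, and 0.0855 with the block). An annotated gene on the opposite strand overlaps 14.1% of its exon bases, so some of its few reads could belong there.

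B2m, Psmb8 and Cd274 were thus the 3 genes of the 9 whose groups did not overlap, against 10.8% of all genes tested (7.08% with Notch3IC higher and 3.75% with Notch3IC lower). In 7 of the 9 genes all 4 sets went the same way, against 40.4% of all genes. B2m, Psmb8 and Psmb9 were higher in 4 of 4 sets (21.0% of all genes), and H2-K1, H2-D1, Tapbp and Cd274 were lower in 4 of 4 (19.4%).

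**Figure D3:**
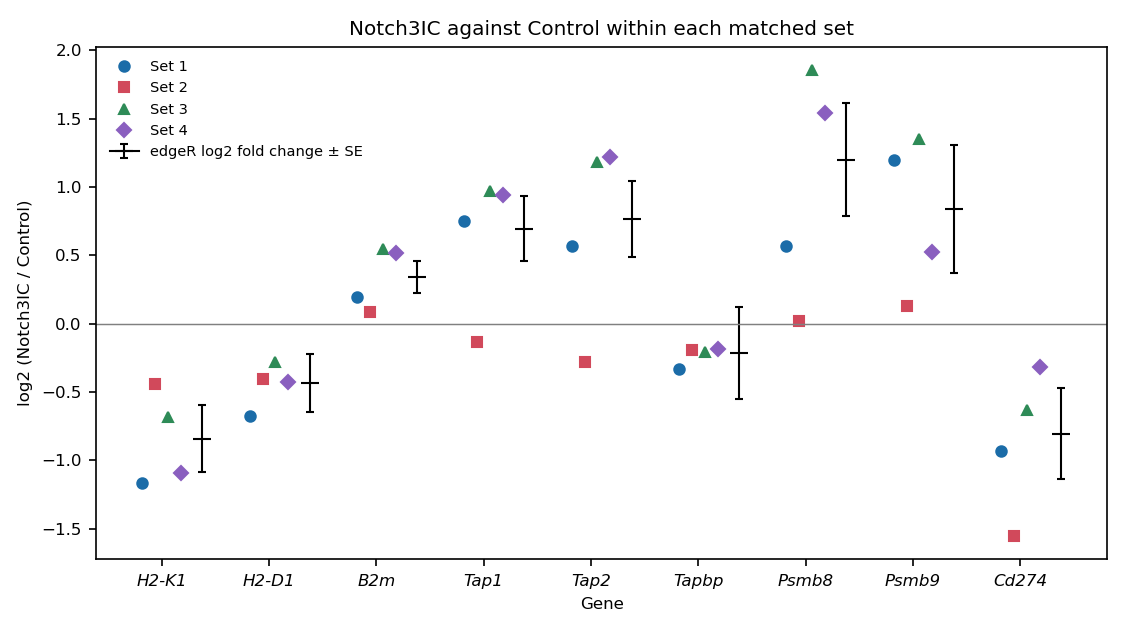
Log2 ratio of Notch3IC to Control normalized counts within each set (y axis, points, with a pseudocount of 0.5) for the 9 tested genes, beside the edgeR log2 fold change with its standard error. Set 2 lies nearest to 0 or below 0 for B2m, Tap1, Tap2, Psmb8 and Psmb9, and is the lowest point, at -1.55, for Cd274.

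The sets did not contribute alike. For Psmb8 the log2 ratios of Notch3IC to Control were 0.57, 0.02, 1.85 and 1.54 in Sets 1 to 4, and for Tap2 they were 0.57, -0.28, 1.18 and 1.22. For these genes, as for B2m and Tap1, Set 2 had the lowest ratio, the set with the least Notch3 in its Notch3IC line. H2-K1 had ratios of -1.17, -0.44, -0.68 and -1.09, with Set 2 the closest to 0. In H2-D1 it was Set 3 that lay closest to 0 (-0.67, -0.40, -0.28 and -0.43), and in Tapbp Set 2 did not stand out (-0.33, -0.19, -0.21 and -0.19). For Cd274 the order was different, with -0.93, -1.55, -0.63 and -0.32, and its largest difference was in Set 2. Each set holds 1 library of each group, so differences between these ratios were not tested.

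Levels were also compared between sets, over both groups. In the fit with condition and set, the set terms together passed an adjusted p of 0.1 for 4 of the 9 genes, against 36.1% of all genes tested, a share near that background. These were Tapbp (edgeR adjusted p = 0.00500), H2-D1 (0.0241), H2-K1 (0.0694) and Psmb9 (0.0858). Tapbp ranged from 4324 in Set 1 to 10709 in Set 2 within Control alone, which is wider than any of its differences between Notch3IC and Control. Without Set 1, 0 of the 9 and 22 of all genes had set terms that passed, with 6 libraries left.

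Per kilobase of annotated exon, the light chain was far above the other 9 genes in Control lines. B2m averaged 6428 normalized counts per kilobase, followed by Tapbp at 2013, and the library ranges of these genes did not overlap. H2-K1 and H2-D1 came next at 621 and 616, with overlapping ranges. Tap2 at 81.8, Tap1 at 44.6 and Psmb8 at 28.6 followed without overlap between neighbors. Cd274 at 10.1 and Psmb9 at 7.42 overlapped, and Nlrc5 was last at 0.261. On this scale the heavy chains, the transporter, the immunoproteasome and the transactivator formed descending steps, with tapasin near the top. The length used is that of all exon bases annotated to a gene in any transcript, 860 for B2m and 3381 for Psmb8. Genes whose expressed transcript is shorter than this are placed too low, so the order depends on the length chosen. These exon lengths are from GENCODE M21 and may differ from those the authors counted on.

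Across the 8 libraries, B2m, Tap1, Tap2 and Psmb8 tracked each other on the log2 CPM scale. Pearson's r was 0.96 for B2m with Psmb8, 0.96 for Tap1 with Tap2, 0.96 for Tap2 with Psmb8 and 0.87 for B2m with Tap1. Psmb9 was less close, with r = 0.83 to Psmb8, 0.80 to B2m, 0.72 to Tap2 and 0.70 to Tap1. H2-K1 and H2-D1 tracked each other (r = 0.84) and neither B2m (-0.44 and -0.26) nor Tap1 (-0.39 and -0.02). Cd274 was closest to H2-D1 (r = 0.72). By ranks (Spearman), B2m had -0.64 with H2-K1 and -0.55 with H2-D1. Cd274 had 0.64 with H2-D1 by ranks, and inverse values of -0.76 with B2m and -0.74 with Psmb8, where Pearson's r was -0.46 and -0.28. The points share 2 groups and 4 sets, so these values are descriptions with no test. Outside the list, among 10965 genes searched, B2m was most like Frk, Smpd2 and Rnf135 (r = 0.99, 0.99 and 0.99), and Tap1 most like Dcaf5, Gcap14 and Vdr (0.99, 0.99 and 0.99). Cd274 was most like Btbd8, 5730494N06Rik and Zfp277 (0.93, 0.92 and 0.91), and Nlrc5 had too few reads to be compared.

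The other genes of the pathway mostly did not pass the test. Of 20 other class I and class I-like heavy chain genes, 9 were tested and 1 was called higher, with a median log2 fold change of 0.12. That gene was Fcgrt, which encodes the heavy chain of the neonatal Fc receptor, a B2m partner that carries IgG and albumin and presents no peptide. It had 222, 566, 336 and 291 normalized counts in Control and 467, 725, 1189 and 1185 in Notch3IC. Each Notch3IC library was above its Control, and Control Set 2 overlapped with Notch3IC Set 1. Fcgrt had a log2 fold change of 1.34 (standard error 0.37, edgeR adjusted p = 0.0957). Mr1, whose product shows microbial vitamin metabolites to MAIT cells, averaged 139 ± 34.3 (SD, n = 4) and 230 ± 68.1 (SD, n = 4), a log2 fold change of 0.73 (edgeR adjusted p = 0.173, and 0.0441 with the block). H2-T23, the gene of Qa-1, averaged 162 ± 75.7 (SD, n = 4) and 137 ± 55.7 (SD, n = 4).

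Among 10 genes of peptide loading and trimming in the endoplasmic reticulum, 10 were tested and 0 were called, with a median of -0.16 and none with an adjusted p below 0.1 with the block. Calr, the gene of the chaperone calreticulin and the one with the most reads, averaged 81481 ± 14259 (SD, n = 4) and 69434 ± 3473 (SD, n = 4). Of 9 other proteasome subunits and activators 0 were called, with a median of -0.15 and again none with the block. Psmb6, a constitutive catalytic subunit that Psmb9 replaces in the immunoproteasome, averaged 3844 ± 462 (SD, n = 4) and 3229 ± 242 (SD, n = 4), a log2 fold change of -0.25 (edgeR adjusted p = 0.272). Psmb10, the remaining immunoproteasome catalytic subunit, had a log2 fold change of -0.38 (edgeR adjusted p = 0.278), of the opposite sign to Psmb8 and Psmb9. Psme4, a proteasome activator, had the most reads, at 6582 ± 396 (SD, n = 4) and 7420 ± 863 (SD, n = 4).

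The regulators of class I genes did not pass the test either. Of 19 transcription factors 17 were tested and 0 were called, with a median of 0.06, 13 above 0 and 4 below. With the block, 1 was higher and 0 were lower at an adjusted p below 0.1, against 14.9% and 12.1% of all genes. Irf1, an activator of class I promoters, had a log2 fold change of 0.06 (edgeR adjusted p = 0.919). Stat3, with the most reads of the list, averaged 5948 ± 1595 (SD, n = 4) and 6308 ± 587 (SD, n = 4).

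Interferon ligands were nearly absent. Of 9 ligand genes Ifnb1 had 1 read in each Set 1 library, and every other count was 0. Of 12 genes of the interferon receptors and their signaling, 11 were tested and 0 were called. Ifngr1 and Jak1 had adjusted p below 0.1 at smaller fold changes. With the block, 3 of the 11 were higher and 4 lower at an adjusted p below 0.1, against 14.9% and 12.1% of all genes. None of these reached the fold limit in the block. Ifngr1, the ligand-binding chain of the interferon gamma receptor, had 786, 704, 824 and 811 normalized counts in Control and 1111, 893, 1304 and 1268 in Notch3IC. The groups did not overlap, and Set 2 differed least. Its log2 fold change was 0.55 (standard error 0.13, edgeR adjusted p = 0.0591), and that of Jak1, the kinase bound to it, was 0.61 (edgeR adjusted p = 0.0622). Ifngr2, the second chain of the same receptor, had a log2 fold change of -0.54 (edgeR adjusted p = 0.331, and 0.0361 with the block), and its kinase Jak2 one of -0.34 (edgeR adjusted p = 0.343, and 0.0358 with the block). Ptpn11, a phosphatase and the gene with the most reads of the list, averaged 9368 ± 1579 (SD, n = 4) and 9811 ± 1854 (SD, n = 4).

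**Figure D4:**
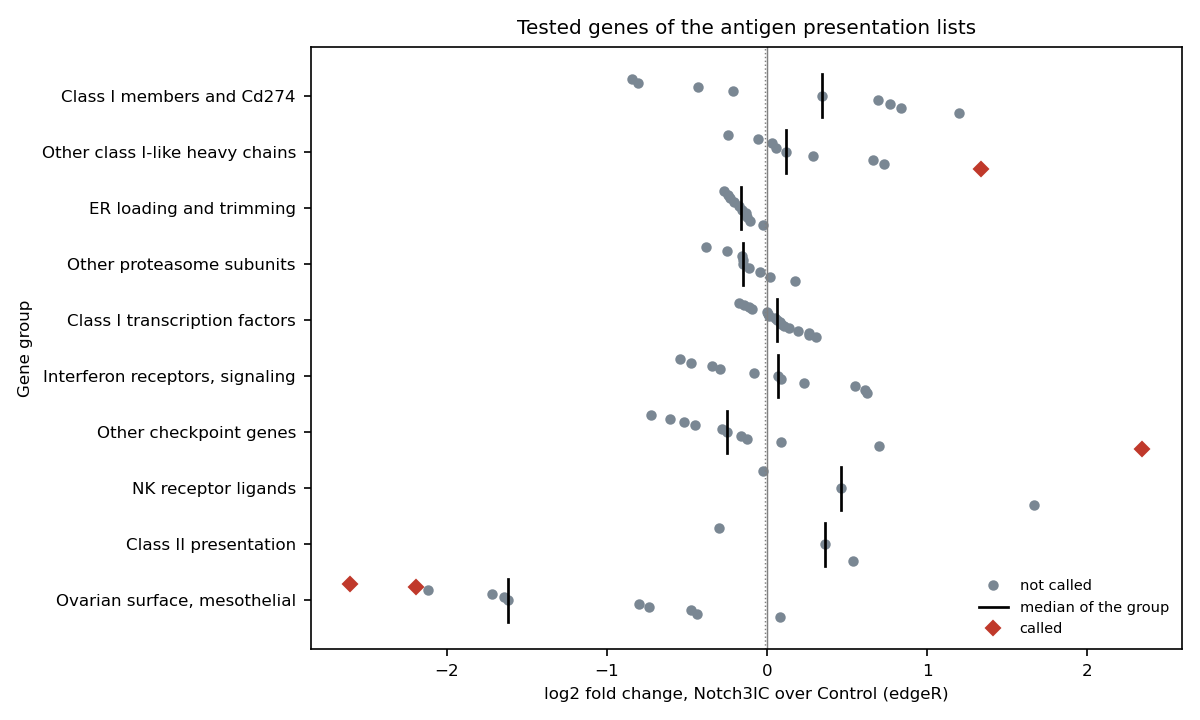
Log2 fold change of Notch3IC over Control (x axis, edgeR) for each tested gene of 10 gene groups (y axis), with called genes as red diamonds, group medians as black bars and the median of all genes as a dotted line. The class I genes and Cd274 spread from -0.84 to 1.20 with none called, while the loading and proteasome groups stay close to 0.

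Of 18 genes listed as PD-L1 regulators or other checkpoint ligands, with the receptor genes Fas and Cd40 among them, 11 were tested. Of these, 1 was called higher and 0 lower, with a median of -0.25, which was the value of Fas. With the block, 1 was higher and 5 were lower at an adjusted p below 0.1, against 14.9% and 12.1% of all genes. In 4 of 4 sets 1 was higher and 7 were lower, against 21.0% and 19.4% of all genes. Fas was among the lower genes in both counts. The called gene was Cd276, which encodes B7-H3, a B7 family relative of PD-L1. It had 826, 1115, 765 and 530 normalized counts in Control and 5161, 1877, 4702 and 4663 in Notch3IC. The groups did not overlap, with Set 2 again the smallest difference, and Cd276 rose by a log2 fold change of 2.34 (standard error 0.34, edgeR adjusted p = 0.0187). Its sign was opposite to that of Cd274. Pvrl2, the older symbol of the poliovirus receptor relative Nectin2 and the gene with the most reads of the list over the 8 libraries, had 3550, 4420, 5634 and 5044 against 1627, 3279, 3570 and 2829 normalized counts. Each set was lower in Notch3IC, with overlap of the groups, and the log2 fold change was -0.72 (edgeR adjusted p = 0.160, and 0.0270 with the block). Tnfsf9, the costimulatory ligand 4-1BBL, had a log2 fold change of -0.61 (edgeR adjusted p = 0.0867), below the fold limit. Cmtm6, whose product keeps PD-L1 at the cell surface, had one of -0.16 (edgeR adjusted p = 0.542). Pdcd1lg2, the gene of PD-L2, had 1 read in all 8 libraries together.

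Ligands of natural killer cell receptors were listed for 11 genes, of which 10 were in the files and 3 were tested. None was called. Clec2d, a ligand of an inhibitory receptor and the one with the most reads, had 15.9, 112, 64.1 and 75.3 normalized counts in Control and 81.6, 122, 373 and 269 in Notch3IC. Every set was higher in Notch3IC, and the groups overlapped through Control Set 2. Its log2 fold change was 1.67 (standard error 0.63, edgeR adjusted p = 0.198), and it was called with the block at 1.69 (edgeR adjusted p = 0.0570). Of 12 class II presentation genes, 3 were tested and 0 were called. Ifi30, a lysosomal reductase gene, averaged 1316 ± 155 (SD, n = 4) and 1070 ± 152 (SD, n = 4), while Cd74, the invariant chain that professional presenting cells express strongly, had 1 to 25 reads.

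Markers of other cells were checked beside these values. Of 14 leukocyte markers 2 were tested. Summed over all 14, normalized counts came to 58.5, 91.9, 90.9 and 129 in Control lines and to 142, 84.9, 105 and 148 in Notch3IC. Ptprc, the pan-leukocyte gene, had 2 reads in Notch3IC Set 1 and 0 in every other library, and Cd3e had 0 in all 8. Cd68, with the most reads, averaged 80.8 ± 29.3 (SD, n = 4) and 61.1 ± 21.4 (SD, n = 4), and Csf1r was called higher, from 8.67 ± 2.38 (SD, n = 4) to 24.7 ± 11.0 (SD, n = 4), a log2 fold change of 1.52 (edgeR adjusted p = 0.0719). Itgax had 0 reads in each Control library and 51, 1, 16 and 25 in Notch3IC. Lyz2 had 0, 3, 2 and 1 reads in Control lines and 2, 3, 7 and 11 in Notch3IC lines, and Cd79a had 1, 0, 1 and 2 against 2, 1, 3 and 7. Of 7 endothelial markers 3 were tested. Over all 7, the sums were 585, 939, 1190 and 1202 in Control lines and 181, 310, 510 and 377 in Notch3IC. Esam, an adhesion gene, had the most reads of these markers and fell with a log2 fold change of -1.64 (edgeR adjusted p = 0.0596). Cdh5 had 2 reads in Control Set 3, 1 in Notch3IC Set 4 and 0 elsewhere. Pecam1 had 8.92, 25.1, 14.3 and 7.92 normalized counts in Control lines and 24.6, 17.6, 16.5 and 25.3 in Notch3IC lines, a log2 fold change of 0.60 (edgeR adjusted p = 0.487), and that of Kdr was 0.51 (edgeR adjusted p = 0.680). Ptprc, Cd3e and Cdh5 were thus at or near 0 in all libraries, while Pecam1 and Kdr had reads in every library. Csf1r, Itgax, Lyz2 and Cd79a had higher normalized counts in Notch3IC in each set, and Cd68 and Esam had lower ones in each set. The part of these markers in the class I values was not tested.

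The labelled tissue was visible in its markers. Of 14 ovarian surface and mesothelial markers, 13 were in the files and 11 were tested, 2 were called lower and 0 higher, with a median of -1.62, and 9 were lower with an adjusted p below 0.1 with the block. Of all genes tested, 4.14% were called in either direction and 12.1% were lower with an adjusted p below 0.1 with the block. The 1 tested marker with a log2 fold change above 0 was Cdh2, the gene of N-cadherin, at 0.08 (edgeR adjusted p = 0.886). Summed over the list, normalized counts came to 33169, 56061, 84925 and 80422 in Control lines and to 15495, 36939, 32658 and 26769 in Notch3IC. Msln, the gene of mesothelin, fell from 2348 ± 1151 (SD, n = 4) to 389 ± 290 (SD, n = 4), a log2 fold change of -2.60 (edgeR adjusted p = 0.0625), and Upk1b, a uroplakin gene, from 4287 ± 1321 (SD, n = 4) to 942 ± 783 (SD, n = 4), one of -2.19 (edgeR adjusted p = 0.0762). Upk3b, with the most reads over the 8 libraries, averaged 21808 ± 10659 (SD, n = 4) and 6631 ± 4292 (SD, n = 4). Epcam and Krt7 were too low to be tested, with Epcam at 2 to 12 reads. The heavy chain counts were lower in the same lines in which the summed counts of these markers were lower, and the part of this in the class I values was not tested.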

How the data were processed

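The 10 genes, the gene lists and the tests were chosen with earlier results of these data known. The authors deposited raw read counts per gene symbol for 8 libraries of polyadenylated RNA, sequenced as single-end reads. The submitters' processing notes name TopHat, Cufflinks, DESeq and the mm9 build, while the annotation and the use of strand are not given in the sources used here. Totals were 15524262 to 28208072 counts per library. From these counts, edgeR 4.0.16 in R 4.3.3 (TMM, filterByExpr by group, robust quasi-likelihood fit) tested Notch3IC against Control with condition as the only term. Standard errors are the size of the log2 fold change divided by the square root of F. The biological coefficient of variation was 26.3%, and 14.1% with the block. Replicates are separate infections of 1 cell line, and no pair of libraries of the same group agreed within sampling noise. The set numbers pair the libraries, since each set is a matched infection and deviations from the group means correlated at 0.79, 0.41, 0.57 and 0.43 within sets, against -0.51 to 0.40 across sets. Set ratios used a pseudocount of 0.5. Positions and exon lengths are from GENCODE M21 (GRCm38), matched by symbol, and the counts were not remapped. Intervals and floors cover counting error only. The code was tested on simulated counts. Alternatives were DESeq2 1.42.0, RLE, upper-quartile and total-count scaling, other filters and thresholds, the block, and leaving out libraries or sets, and the block with a set left out was added after seeing the data. Named genes were the 10 genes, Notch markers, and of each list the called genes, the smallest adjusted p where none was called, and the one with the most reads over the 8 libraries, of which 1 gene is not reported here. For B2m, Tap1 and Cd274 they included the 3 genes highest in Pearson's r among those with a mean log2 CPM of at least 1. Mr1, H2-T23, Psmb10, Irf1, Jak1, Ifngr2, Jak2, Tnfsf9, Cmtm6, Pdcd1lg2, Fas, Cd40 and Cd74 were named after their values were seen. So were Itgax, Cdh2, Pecam1, Kdr, Lyz2, Cd79a and low markers.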

Additional observations from a re-analysis of the deposited data

Results flagged for a closer look

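Among the tested class I genes, Cd274 and 4 Notch markers, 2 of 26 groups of 4 libraries held a library far from the other 3 by Dixon's test, where chance gives about 1.3. Psmb9 had 10.9 normalized counts in Control Set 1, against 30.9 to 33.5 in the other Control libraries. Notch3 had 70.8 in Control Set 3, against 38.6 to 42.0 in the others.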

How the results depend on the processing

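Of 206 values of the 9 tested genes under the alternatives, 7 passed both thresholds (adjusted p and fold), 1 changed sign and the other 198 kept their sign and stayed uncalled. An adjusted p below 0.1 was reached by 27, of which 20 were below the fold limit, and Psmb8 was below the fold limit in 4. The change of sign was Tapbp, whose log2 fold change of -0.21 ran from -0.47 to 0.028 with single libraries left out and was 0.028 without Control Set 2. In the comparison of Notch3IC with Control, 515 genes were called. The number was 338 at an adjusted p below 0.05, 832 with no fold limit, 900 with DESeq2, 960 with the replicate block, 899 without Set 2, 1 without Set 3 and 0 without Set 4 (edgeR, where 1011 had an unadjusted p below 0.05), and 83 to 1007 with single libraries left out. With the block it was 69, 1330, 81 and 159 without Sets 1 to 4. Of the class I genes and Cd274, 0 were called, where 4.14% of all genes tested were. The number was 1 with DESeq2 (Psmb8, 6.42% of all genes), 1 with the block (Psmb8, 7.72%) and 1 without Set 2 (Tap2, 7.2%). It was 3 with the block without Set 2 (Tap2, Psmb8 and Psmb9), where 10.6% of all genes were called. With single libraries left out it was 0 to 1, the 1 being Psmb8 without Notch3IC Set 2 (8.0%). Set terms passed for 4487 genes, 36.1% of the 12430 tested. The number was 2687 at an adjusted p below 0.05, 1536 with the set term alone, 446 to 6354 with single libraries left out and 22 without Set 1. Of the 9 genes, set terms passed for 4, for 2 at 0.05, 1 with the set term alone and 0 without Set 1. With single libraries left out they passed for 2 to 7, the 7 without Control Set 2, where 6354 of all genes passed. Beyond fewer libraries and genes, the cause was not tested. Depth limits Nlrc5, Cd274 and Psmb9 most, as they have the fewest reads.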
